A study of Mus musculus with 20 samples.

Results

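Transcript levels of 10 genes of the NRF2 antioxidant pathway were followed in intervertebral discs of old mice. The genes were taken by their symbols from the deposited table: Nfe2l2, Keap1, Hmox1, Nqo1, Gclc, Gclm, Txnrd1, Srxn1, Slc7a11 and Gsr. Each symbol matched 1 row, so they are 10 of the 51789 genes in the table. All 10 passed the filter on low values (at least 1 FPKM in at least 5 of 20 libraries) and were among the 16383 genes tested.

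The disc has a gelatinous core, the nucleus pulposus (NP), and a fibrous ring around it, the annulus fibrosus (AF). BL6 mice were given DMSO (the vehicle) or MDL-800 in DMSO intraperitoneally every week for 6 months, starting at an age of 18 months, and both tissues were taken at 24 months. MDL-800 is a small molecule described as an activator of SIRT6, a deacylase that acts on chromatin. The 4 groups are NP vehicle (libraries 1, 2, 3, 5 and 6), NP MDL-800 (15, 18, 19, 20 and 22), AF vehicle (8, 9, 10, 12 and 13) and AF MDL-800 (25, 27, 28, 29 and 30), with 5 libraries each, numbered as in the sample titles. All mice were aged and all received DMSO, so no group shows a young or an uninjected disc. The sample labels name neither the sex of the mice nor which NP and AF libraries came from the same animal. They call the material primary cells, whereas the extraction protocol describes dissected tissue placed directly in a preservative. Nothing in the labels says that the libraries of a group came from separate mice, and if they did not, p-values measure only the spread between libraries.

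NRF2, encoded by Nfe2l2, is a transcription factor that pairs with small MAF proteins and binds antioxidant response elements near its target genes. KEAP1 holds NRF2 in the cytoplasm and presents it to a CUL3 ubiquitin ligase for degradation, and oxidants or electrophiles that modify KEAP1 let NRF2 build up. NRF2 is therefore controlled largely at the protein level, which RNA does not show. Its targets cover glutathione synthesis and reduction, the thioredoxin system, quinone reduction and heme breakdown. The disc core has no blood vessels of its own and lies in low oxygen.

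An antioxidant response element has the core TGACNNNGC, where N is any base. This core was looked for on both strands in RefSeq windows of the build GRCm38.p6, from 250 bases before to 50 after each gene's start. It was present in 12.4% of 32851 windows. The table holds 9 windows for 7 of the 10 genes (Nfe2l2, Keap1, Nqo1, Gclm, 3 for Txnrd1, Srxn1 and Slc7a11). The core occurred in 4 of the 9 windows, 1 each of Nfe2l2, Gclm, Txnrd1 and Srxn1. In Srxn1 the match TGACCTAGC lay on the minus strand of the window, at base 29 after the start. None of the 4 matches overlapped the AP-1 motif TGANTCA. A match of letters describes the sequence and does not show a bound site. A window without a match does not show that a gene lacks such an element, as sequence outside the windows was not searched. Hmox1, Gclc and Gsr have no window here. The 250 bases before the start are printed for the 3 windows whose match lies wholly ahead of it. Each is written 5′ to 3′ on the strand of the gene with the match in capitals. For Gclm and Txnrd1 the match lies on the other strand, as TGACGGTGC and TGACAAAGC, so the capitals show its complement read in reverse.
Nfe2l2, chr2:75704664-75704913, minus strand, match TGACTCCGC beginning 240 bases before the start: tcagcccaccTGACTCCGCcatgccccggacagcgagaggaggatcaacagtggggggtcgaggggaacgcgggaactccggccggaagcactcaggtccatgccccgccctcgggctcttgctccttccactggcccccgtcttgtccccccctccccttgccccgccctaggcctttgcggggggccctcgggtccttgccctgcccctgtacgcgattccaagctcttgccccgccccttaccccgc
Gclm, chr3:122245307-122245556, plus strand, match beginning 134 bases before the start: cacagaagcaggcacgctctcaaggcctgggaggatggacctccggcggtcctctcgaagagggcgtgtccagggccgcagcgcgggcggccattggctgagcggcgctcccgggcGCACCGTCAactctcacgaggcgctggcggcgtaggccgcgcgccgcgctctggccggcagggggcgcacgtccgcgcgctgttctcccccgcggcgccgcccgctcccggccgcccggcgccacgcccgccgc
Txnrd1, second of 3 starts, chr10:82858956-82859205, plus strand, match beginning 92 bases before the start: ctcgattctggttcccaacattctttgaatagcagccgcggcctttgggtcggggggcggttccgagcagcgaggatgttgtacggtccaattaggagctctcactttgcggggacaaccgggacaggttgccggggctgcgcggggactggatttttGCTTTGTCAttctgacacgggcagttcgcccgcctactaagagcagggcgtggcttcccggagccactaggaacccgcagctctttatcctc

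Values are FPKM (fragments per kilobase of transcript, relative to the mapped fragments of the library), divided by a factor for each library, and are called scaled FPKM here. They are per length, so levels can be set side by side between genes. Differences are of log2(scaled FPKM + 1), so those of low genes come out smaller than they are. Estimated depth ran from 12.8 to 22.2 megareads per library. Of 8 NP markers tested, 8 were higher in NP than in AF in vehicle-treated mice and 7 in MDL-800-treated mice, and 7 and 6 of 8 AF markers were lower. AF vehicle library 9 stood apart by its NP markers, whose mean log2 level was 6.90 against 5.13 to 5.97 in the other 4 AF vehicle libraries. In AF MDL-800 libraries this level ran from 5.27 to 6.67, highest in library 25. NP vehicle library 6 had the highest macrophage and neutrophil marker means of all NP libraries, at 3.40 and 7.91 on the log2 scale.

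The 10 genes ranked differently in the NP and the AF. Nqo1 was the highest of the 10 in both NP groups (46.8 ± 13.8 scaled FPKM with vehicle and 43.5 ± 8.36 with MDL-800; SD, n = 5), followed by Nfe2l2 and Keap1. In NP vehicle libraries the range of Nqo1 did not overlap that of Nfe2l2, and in NP MDL-800 libraries it did. From Nfe2l2 down to Hmox1, each gene overlapped the next in both NP groups. In AF, Gsr came first (90.2 ± 42.0 with vehicle, 110.0 ± 44.0 with MDL-800; SD, n = 5) and Gclm second (76.1 ± 15.4 and 85.2 ± 37.5), with overlapping ranges. Nfe2l2 came next in AF, while Nqo1 took place 6 with vehicle and 5 with MDL-800. Slc7a11 was last in every group, without overlap with the gene above it.

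**Figure D1:**
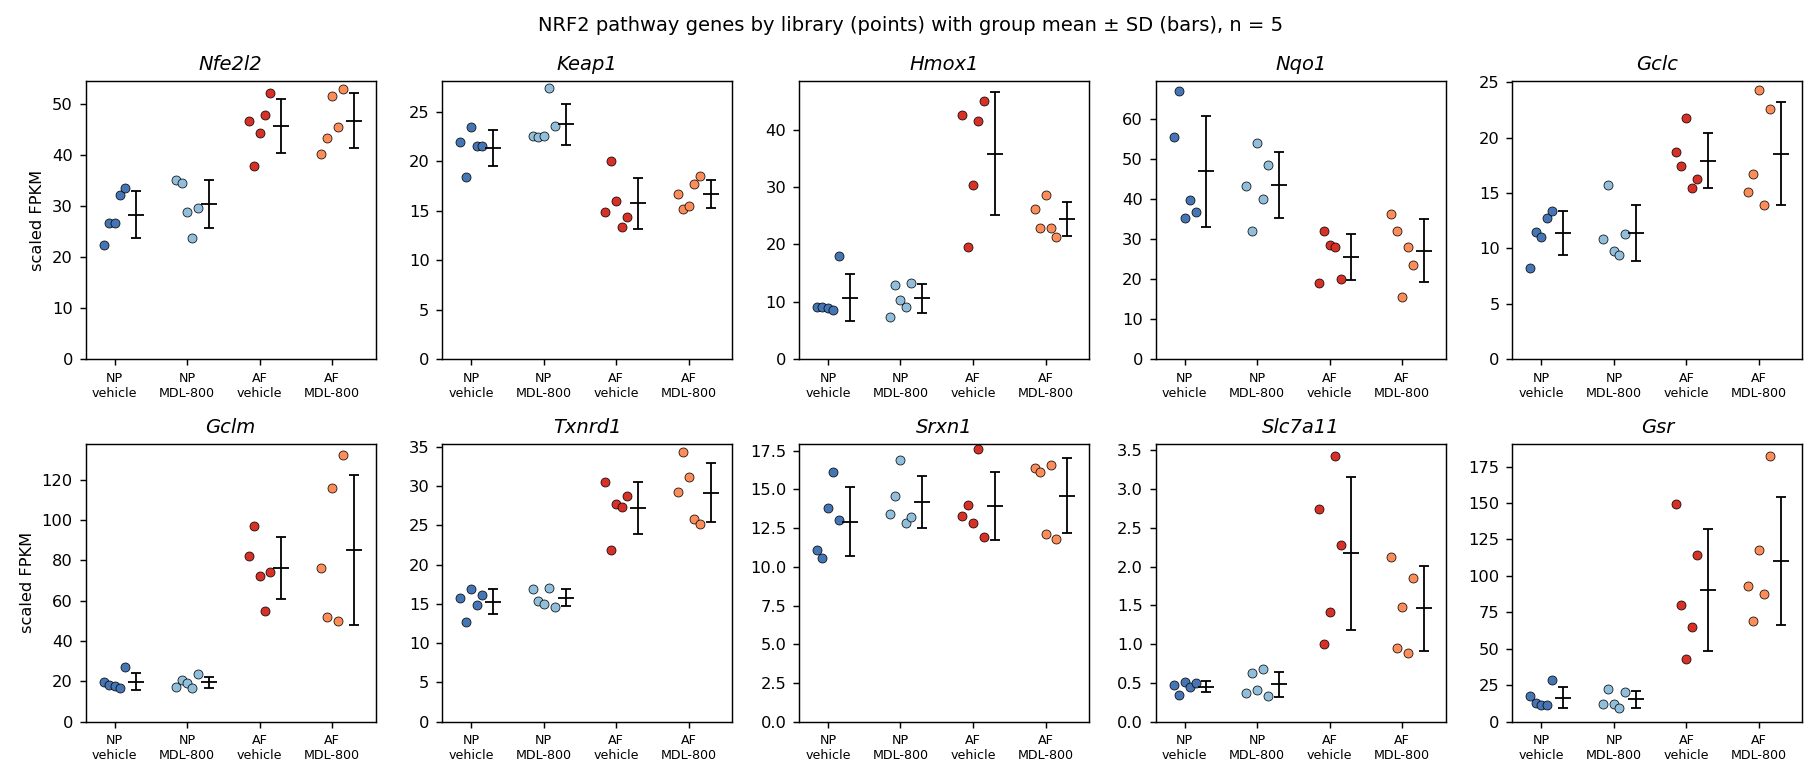
Scaled FPKM of the 10 genes in each library. Points are libraries, bars are the group mean ± SD (n = 5), and each panel has its own vertical axis from 0. NP points lie below AF points for Nfe2l2, Hmox1, Gclm, Txnrd1, Slc7a11 and Gsr, and the groups overlap for Srxn1.

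The comparison of NP with AF asks how the pathway differs between compartments of the aged disc, first in vehicle-treated mice. Of the 10 genes, 9 differed at an adjusted p under 0.05: Keap1 and Nqo1 were higher in NP, and Nfe2l2, Hmox1, Gclc, Gclm, Txnrd1, Slc7a11 and Gsr were lower. Srxn1 did not pass. The test was limma on log2 values with Benjamini-Hochberg adjustment over all 16383 genes. Over all genes, 55.7% were called between these tissues, 21.8% higher and 33.9% lower in NP, so a call by itself says little about this pathway. The median difference of the 10 genes was -0.74, beside -0.08 for all genes tested. In 8 of the 10 the NP and AF libraries did not overlap, as in 41.0% of all genes.

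In MDL-800-treated mice, whose libraries are none of those above, the same 9 genes were called in the same directions. Here 62.8% of all genes were called, 25.6% higher and 37.2% lower. The median of the 10 genes was -0.68, again beside -0.08. In 7 of the 10 the groups did not overlap, against 49.1% of all genes. Quantile normalization moved the median difference of all genes by 0.29 in both comparisons and turned the balance of calls from 3577 higher and 5550 lower in NP to 6474 and 3923 with vehicle, and from 4188 and 6102 to 6919 and 4290 with MDL-800. All 9 called genes kept their direction under it, but Srxn1 changed from -0.10 to 0.15 and from -0.03 to 0.20, and in MDL-800-treated mice Gclc (-0.41, adjusted p = 0.0514) and Slc7a11 (-0.16, adjusted p = 0.439) no longer passed.

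**Figure D2:**
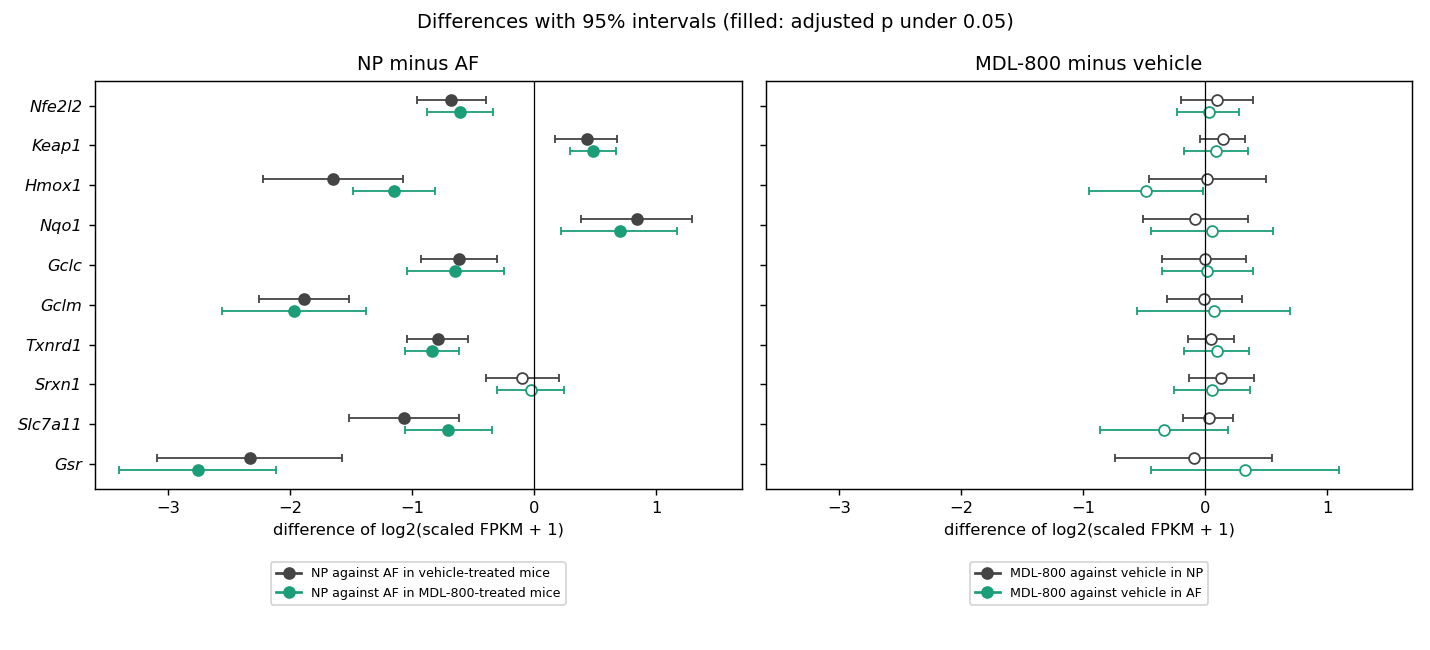
Difference of log2(scaled FPKM + 1) for each gene with its 95% interval, NP minus AF on the left and MDL-800 minus vehicle on the right. Filled points have a limma adjusted p under 0.05. In the left panel 9 of 10 genes are filled in both treatments, with Gsr farthest from 0 at -2.33 and -2.76, and in the right panel none is filled. Srxn1 lies at -0.10 and -0.03 in the left panel, and quantile normalization, which is not drawn, put it at 0.15 and 0.20.

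The transcription factor and its repressor differed in opposite directions. Nfe2l2 (ENSMUSG00000015839, chromosome 2, 75675513 to 75704641, GRCm38) had a scaled FPKM of 22.3, 26.7, 26.7, 32.1 and 33.5 in the NP of vehicle-treated mice (libraries 1, 2, 3, 5 and 6). The AF of such mice (libraries 8, 9, 10, 12 and 13) had 46.7, 37.7, 44.3, 47.7 and 52.0. Every AF library lay above every NP library. The difference was -0.68 (SE 0.13; limma adjusted p = 0.001). With MDL-800, NP libraries ran from 23.6 to 35.1 and AF libraries from 40.1 to 52.9, a difference of -0.61 (SE 0.12; limma adjusted p = 0.00128).

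Keap1 (ENSMUSG00000003308, chromosome 9, 21229730 to 21239361), which encodes the repressor of NRF2, was higher in NP. NP vehicle libraries 1, 2, 3, 5 and 6 held 21.9, 18.4, 23.5, 21.5 and 21.5, and AF vehicle libraries 8, 9, 10, 12 and 13 held 14.9, 20.0, 16.0, 13.4 and 14.4. Only AF library 9, the AF vehicle library highest in NP markers, reached into the NP range. The difference was 0.43 (SE 0.12; limma adjusted p = 0.0093), and 0.51 without that library. In MDL-800-treated mice NP libraries ran from 22.5 to 27.4 and AF libraries from 15.2 to 18.5, without overlap, a difference of 0.48 (SE 0.09; limma adjusted p = 0.00068).

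Because FPKM is per length, the 2 transcripts can be set against each other within a library, a ratio chosen after the values were seen and given without a test. The ratio of Nfe2l2 FPKM to Keap1 FPKM was 1.33 ± 0.240 in NP vehicle libraries and 1.30 ± 0.281 in NP MDL-800 libraries (SD, n = 5). It is not a count of molecules. In AF the ratio was 2.80 ± 0.355 with MDL-800 and had a mean of 2.99 with vehicle, from 1.89 to 3.62. The highest NP library was at 1.56 and the lowest AF library, vehicle library 9, at 1.89.

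Of the 4 glutathione genes among the 10 (Gsr, Gclm, Gclc and Slc7a11), Gsr and Gclm had the largest differences on the log2(scaled FPKM + 1) scale. Gsr (ENSMUSG00000031584, chromosome 8, 33652523 to 33698163) encodes glutathione reductase, which returns oxidised glutathione to its reduced form with NADPH. NP vehicle libraries 1, 2, 3, 5 and 6 had 17.5, 12.9, 11.8, 11.7 and 28.7, whereas AF vehicle libraries 8, 9, 10, 12 and 13 had 149, 79.8, 42.8, 64.8 and 114. The AF mean was 5.46 times the NP mean, and even library 6, the highest of NP vehicle, lay below AF library 10, the lowest of AF vehicle. The difference was -2.33 (SE 0.34; limma adjusted p = 0.000204). With MDL-800 the NP libraries 15, 18, 19, 20 and 22 held 12.5, 22.4, 12.1, 9.09 and 20.6, and the AF libraries 25, 27, 28, 29 and 30 held 93.3, 69.1, 118, 87.6 and 182. These groups were again apart, by -2.76 (SE 0.29; limma adjusted p = 1.75e-05).

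Gclm (ENSMUSG00000028124, chromosome 3, 122245557 to 122270732) encodes the modifier subunit of glutamate-cysteine ligase, the rate-limiting enzyme of glutathione synthesis, and Gclc the catalytic subunit. For Gclm, NP vehicle libraries 1, 2, 3, 5 and 6 read 19.7, 18.0, 17.5, 16.7 and 27.1, and AF vehicle libraries 8, 9, 10, 12 and 13 read 82.2, 97.1, 72.4, 54.8 and 74.0. The AF mean was 3.84 times the NP mean, without overlap, a difference of -1.89 (SE 0.17; limma adjusted p = 1.19e-05). In MDL-800-treated mice it was 17.3, 20.5, 19.2, 16.8 and 23.8 in NP libraries 15, 18, 19, 20 and 22. AF libraries 25, 27, 28, 29 and 30 were at 76.2, 51.7, 116, 49.9 and 132 and, though spread among themselves, all lay above every NP library. The difference was -1.97 (SE 0.27; limma adjusted p = 8.92e-05).

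Gclc (ENSMUSG00000032350, chromosome 9, 77754535 to 77794485) differed less than its partner subunit. It ran from 8.23 to 13.4 in NP vehicle and from 15.4 to 21.8 in AF vehicle libraries, a difference of -0.62 (SE 0.14; limma adjusted p = 0.00302). With MDL-800 the ranges, 9.39 to 15.7 and 13.9 to 24.3, overlapped, and the difference was -0.65 (SE 0.18; limma adjusted p = 0.00889). The ratio of Gclm to Gclc within a library, also chosen after the values were seen, was 1.78 ± 0.427 in NP without and 1.76 ± 0.317 in NP with MDL-800 (SD, n = 5). It was 4.28 ± 0.893 and 4.47 ± 1.12 in the matching AF groups, where the lowest library was at 3.09 and the highest NP library at 2.39.

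**Figure D3:**
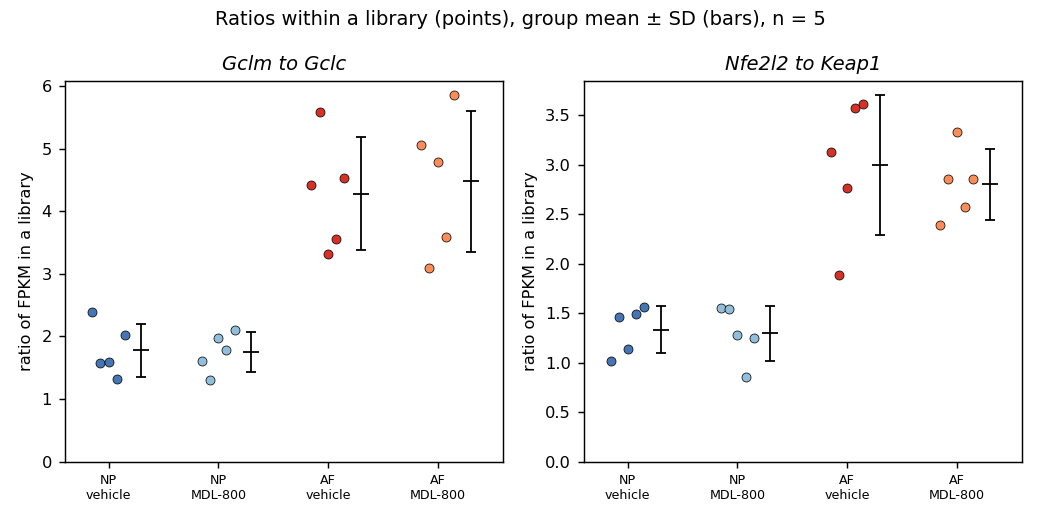
Ratio of scaled FPKM of Gclm to Gclc (left) and of Nfe2l2 to Keap1 (right) in each library. Points are libraries and bars the group mean ± SD (n = 5). NP ratios of Gclm to Gclc lie between 1.31 and 2.39 and AF ratios between 3.09 and 5.85.

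Slc7a11 (ENSMUSG00000027737, chromosome 3, 49892526 to 50443614), the cystine importer that supplies cysteine for glutathione, was the lowest of the 10 genes. Its NP vehicle libraries ran from 0.340 to 0.506 and its AF vehicle libraries from 1.00 to 3.43. NP MDL-800 libraries ran from 0.329 to 0.677 and AF MDL-800 libraries from 0.887 to 2.13. This gene passed the filter on low values only through AF, so it had to differ, and its differences of -1.07 (SE 0.20) and -0.71 (SE 0.16) support nothing about the pathway. As a ratio of means, AF was 4.80 times NP with vehicle and 3.02 times with MDL-800. Of the other 9 genes, 8 were called in each tissue comparison, with medians of -0.68 (vehicle) and -0.65 (MDL-800).

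The thioredoxin system reduces protein disulfides and peroxiredoxins in parallel to glutathione. Txnrd1 (ENSMUSG00000020250, chromosome 10, 82833951 to 82897712), the cytosolic thioredoxin reductase, was 12.7 to 16.9 in NP vehicle and 21.8 to 30.5 in AF vehicle libraries. The difference was -0.79 (SE 0.11; limma adjusted p = 0.000168). With MDL-800 it was 14.6 to 17.0 in NP and 25.2 to 34.3 in AF, a difference of -0.84 (SE 0.10; limma adjusted p = 3.58e-05). Neither pair of groups overlapped.

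Srxn1 (ENSMUSG00000032802, chromosome 2, 152105516 to 152111376), sulfiredoxin, which repairs over-oxidised peroxiredoxins, was the exception. It was 10.6 to 16.1 in NP vehicle and 11.9 to 17.6 in AF vehicle libraries, and 12.8 to 16.9 in NP MDL-800 and 11.8 to 16.6 in AF MDL-800 libraries. The difference was -0.10 with vehicle (95% interval -0.40 to 0.20; limma adjusted p = 0.56) and -0.03 with MDL-800 (-0.31 to 0.24; limma adjusted p = 0.845). All 4 groups overlapped.

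Nqo1 and Hmox1, both widely used as readouts of NRF2, went opposite ways between the tissues. Nqo1 (ENSMUSG00000003849, chromosome 8, 107388225 to 107403206), a quinone reductase, read 55.5, 66.9, 35.3, 39.8 and 36.8 in NP vehicle libraries 1, 2, 3, 5 and 6, against 19.0, 31.9, 28.4, 28.0 and 20.0 in libraries 8, 9, 10, 12 and 13 of AF vehicle. All NP values were above all AF values, a difference of 0.84 (SE 0.21; limma adjusted p = 0.00538). With MDL-800 it was 43.2, 32.0, 53.9, 39.9 and 48.5 in NP libraries 15, 18, 19, 20 and 22 and 36.2, 31.9, 15.6, 28.0 and 23.6 in AF libraries 25, 27, 28, 29 and 30. NP library 18 fell within the AF range, where only AF library 25, the AF MDL-800 library highest in NP markers, lay above it. The difference was 0.70 (SE 0.21; limma adjusted p = 0.015).

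Hmox1 (ENSMUSG00000005413, chromosome 8, 75093621 to 75100589), the inducible heme oxygenase that opens the heme ring, was lower in NP. NP vehicle libraries 1, 2, 3, 5 and 6 were at 9.16, 9.12, 8.84, 8.47 and 18.0, and AF vehicle libraries 8, 9, 10, 12 and 13 at 42.6, 19.6, 30.3, 41.5 and 45.1. Library 6 was the highest of NP vehicle and library 9 the lowest of AF vehicle, and they did not cross. The difference was -1.65 (SE 0.26; limma adjusted p = 0.000311), and leaving out either of these libraries gave -1.84. In MDL-800-treated mice NP libraries 15, 18, 19, 20 and 22 held 7.40, 13.0, 10.3, 9.16 and 13.3, and AF libraries 25, 27, 28, 29 and 30 held 26.1, 22.9, 28.7, 22.9 and 21.3. The difference was -1.15 (SE 0.15; limma adjusted p = 8.71e-05).

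Markers of neighbouring cells also differed between the tissues, and in bulk tissue fewer cells of a type cannot be told apart from less RNA per cell. All 7 red blood cell, 8 macrophage and 7 neutrophil markers tested were lower in NP in both comparisons, as were all 7 bone, 7 skeletal muscle, 5 fat, 4 nerve and 6 endothelium markers. Summed red blood cell markers ran from 27.6 to 208 scaled FPKM in NP libraries and from 598 to 3222 in AF libraries. Summed macrophage markers were 45.3 to 103 in NP and 269.9 to 544 in AF, and summed neutrophil markers 180.5 to 2972 and 5826 to 31504. No marker of these lists was at 0 in all libraries of a group.

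Within a tissue, some of the 10 genes followed these markers from library to library. Over 10 AF libraries, Gclm went with the mean red blood cell marker level (Pearson's r = 0.97, permutation p = 3.0e-05, adjusted p = 0.0018; Spearman's rho = 0.94, adjusted p = 0.0078), and r was 0.95 without the 2 libraries farthest from the median. Over the same libraries Gsr went with the neutrophil markers (r = 0.94, permutation adjusted p = 0.0027; rho = 0.93, adjusted p = 0.0078; 0.93 without the 2 farthest). In NP, Gsr and the neutrophil markers had r = 0.91 (permutation adjusted p = 0.0054), with rho at 0.78 (adjusted p = 0.15) and r at 0.96 without the 2 farthest. With both treatment groups centred on their own means, r stayed at 0.97, 0.94 and 0.92 for these relations. Of 60 such relations (10 genes, 3 marker lists, 2 tissues), 6 passed by Pearson's r and 2, both in AF, also by rho. The others that passed by r were in NP. Gsr went with red blood cell markers (r = 0.90, permutation adjusted p = 0.009). Gclm went with neutrophil (r = 0.82, permutation adjusted p = 0.028) and red blood cell markers (r = 0.80, permutation adjusted p = 0.036). In NP, Gsr and Gclm thus each followed both marker lists about equally. Hmox1 and the macrophage markers had r = 0.73 in NP and 0.72 in AF (permutation adjusted p = 0.095 for each), and in NP r was -0.06 without the 2 farthest libraries. This was not particular to macrophage markers or to Hmox1. In NP, Hmox1 had r = 0.72 with red blood cell and 0.72 with neutrophil markers. In AF, Keap1 had r = -0.74 with macrophage markers (permutation adjusted p = 0.095 for these 3 as well).

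**Figure D4:**
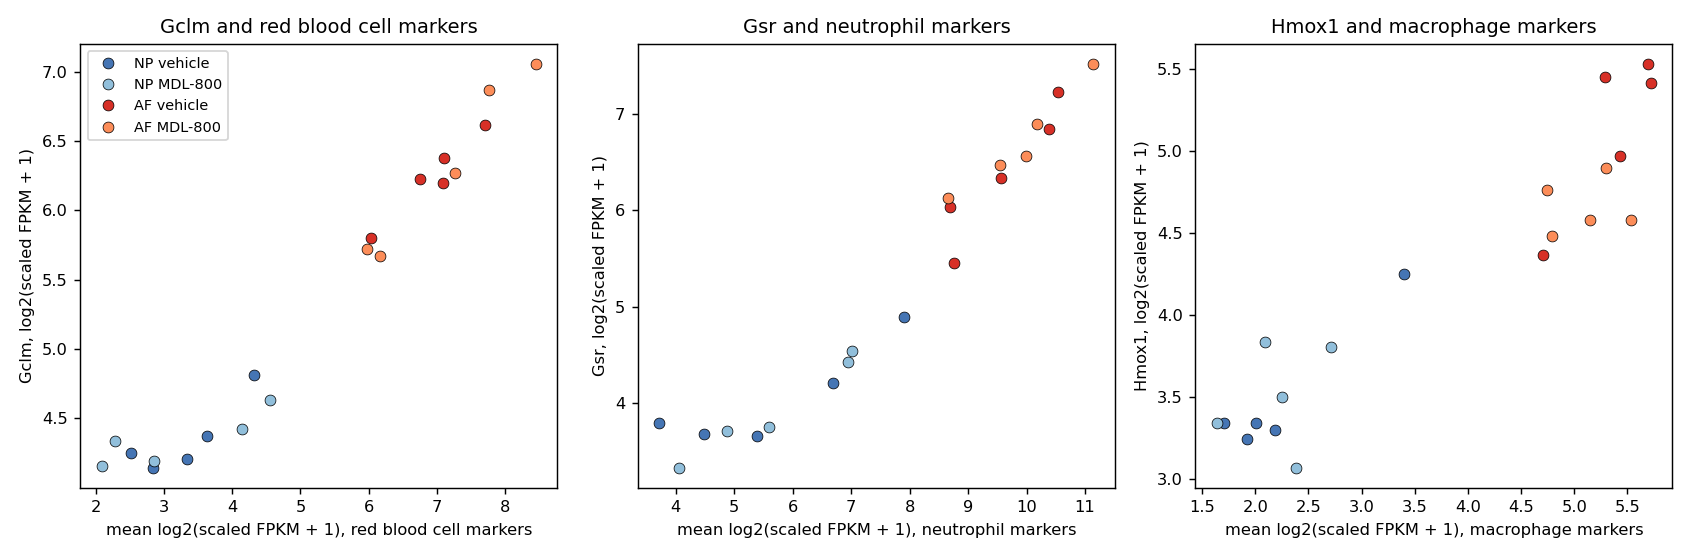
Level of Gclm, Gsr and Hmox1 in each library against the mean log2(scaled FPKM + 1) of red blood cell, neutrophil and macrophage markers. Each point is a library, coloured by group. NP libraries lie at the lower left and AF libraries at the upper right in each panel, with no overlap of the tissues on the marker axis.

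With such a marker mean as a covariate in the tissue comparison, few of the 10 genes passed, and the calls over all genes were lost alike. Of 16383 genes, 9127 were called in vehicle-treated mice without a covariate and 0, 0 and 2150 with red blood cell, macrophage and neutrophil markers. In MDL-800-treated mice it was 10290 without and 3198, 0 and 2554 with them, so the loss says nothing particular about these 10 genes. In vehicle-treated mice 0 of the 10 passed with red blood cell or macrophage markers and 1 with neutrophil markers, Gclm (-1.33, SE 0.26; limma adjusted p = 0.0153). In MDL-800-treated mice 2 passed with red blood cell markers, Txnrd1 (-1.07, limma adjusted p = 0.00991) and Gsr (-0.97, adjusted p = 0.0288). The same 2 passed with neutrophil markers, at -1.15 (limma adjusted p = 0.00888) and -0.88 (adjusted p = 0.0361), and 0 with macrophage markers. The differences themselves did not all shrink. With red blood cell markers in vehicle-treated mice, Gclm went from -1.89 to -0.49 and Gsr from -2.33 to -0.81, whereas Hmox1 stood at -1.58 beside -1.65 and Txnrd1 at -0.72 beside -0.79. Further from 0 than without the covariate were Nfe2l2 (-0.88 beside -0.68), Keap1 (1.09 beside 0.43), Slc7a11 (-1.94 beside -1.07) and Srxn1 (-0.36 beside -0.10). Errors were wider throughout and none passed. In MDL-800-treated mice the same covariate did not move these genes alike. Nfe2l2 went from -0.61 to -0.21 and Slc7a11 from -0.71 to -0.32. Keap1 stood at 0.47 beside 0.48, and Srxn1 at -0.44 beside -0.03. Since the marker means of NP and AF do not overlap, tissue and cell makeup cannot be told apart in these libraries, and the part of other cells in the differences was not tested further.

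The comparison of MDL-800 with vehicle asks whether long-term dosing moved the pathway in either compartment. In NP, none of the 10 genes passed (limma; smallest adjusted p = 0.463, Keap1), and at an unadjusted p under 0.05 there were also 0. Of all genes tested, 0.250% were called in NP and 14.1% had an unadjusted p under 0.05. Differences ran from -0.09 for Gsr to 0.15 for Keap1, with a median of 0.02 beside -0.03 for all genes. All 10 pairs of groups overlapped, where 4.50% of all genes did not.

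The 95% intervals show what sizes these libraries allow. In NP, Keap1 was 21.4 ± 1.87 with vehicle and 23.7 ± 2.10 with MDL-800 (SD, n = 5), a difference of 0.15 (interval -0.04 to 0.33). Nfe2l2 was 28.3 ± 4.55 and 30.3 ± 4.73, a difference of 0.10 (-0.20 to 0.39). For Txnrd1 the interval was -0.14 to 0.24, for Srxn1 -0.13 to 0.40, for Slc7a11 -0.18 to 0.23, for Gclm -0.31 to 0.30 and for Gclc -0.35 to 0.34. The widest were those of Nqo1 (-0.51 to 0.35), Hmox1 (-0.46 to 0.50) and Gsr (-0.74 to 0.55). NP vehicle library 6 weighed on the last 2: without it the difference of Hmox1 went from 0.02 to 0.21 and that of Gsr from -0.09 to 0.12, neither passing. The dependence of expression on GC content separated the groups, with slopes from -0.28 to -0.01 log2 units per 10 points of GC in NP vehicle and from 0.02 to 0.09 in NP MDL-800 libraries. With the GC trend removed, Keap1 moved from 0.15 to -0.02 and 0 of the 10 genes passed.

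In AF, too, none of the 10 genes passed (limma; adjusted p = 1 for each), and 0% of all genes were called. The groups overlapped for each of the 10, where 0.226% of all genes did not overlap. At an unadjusted p under 0.05 there was 1 of the 10, Hmox1, as for 1.65% of all genes. Hmox1 was 35.8 ± 10.7 with vehicle and 24.4 ± 2.96 with MDL-800 (SD, n = 5), a difference of -0.48 (interval -0.95 to -0.02; limma unadjusted p = 0.0442). The vehicle libraries 8, 12 and 13 (42.6, 41.5 and 45.1) and 10 (30.3) were above all MDL-800 libraries (21.3 to 28.7), and vehicle library 9 was below them at 19.6. Without library 9 the difference was -0.68, again with an adjusted p of 1. Macrophage markers had a median difference of -0.27 between these groups, with 0 of 8 called. Over the AF libraries Hmox1 had r = 0.72 with them, which did not pass (permutation adjusted p = 0.095). With the macrophage covariate the difference of Hmox1 was -0.31 (SE 0.18), also not passing. The part of macrophages in the value of Hmox1 was not tested further.

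The remaining AF differences ran from -0.34 for Slc7a11 (interval -0.86 to 0.19) to 0.33 for Gsr (-0.44 to 1.10). Nfe2l2 was 45.7 ± 5.27 and 46.7 ± 5.43 (SD, n = 5), a difference of 0.03 (-0.23 to 0.28), and Keap1 was 15.7 ± 2.56 and 16.7 ± 1.43, a difference of 0.09 (-0.17 to 0.35). Gclm (-0.56 to 0.70) and Nqo1 (-0.44 to 0.56) had wide intervals, and Txnrd1 (-0.17 to 0.36), Srxn1 (-0.25 to 0.37) and Gclc (-0.35 to 0.39) narrower ones. A p above the threshold does not show that the groups were alike.

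Whether MDL-800 acted differently in NP and AF was tested as a contrast over all 4 groups, and none of the 10 genes passed (limma; adjusted p = 1 for each), with 0% of all genes called and 3.73% at an unadjusted p under 0.05. None of the 10 genes had an unadjusted p under 0.05. Hmox1 had the largest difference between the effects, 0.50 (interval -0.15 to 1.16), followed by Gsr at -0.43 (-1.42 to 0.57) and Slc7a11 at 0.36 (-0.19 to 0.91). The other 7 lay between -0.14 and 0.07.

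The wider pathway was read from 6 lists with 61 genes, of which 59 were tested (Gpx2 and Abcc2 were too low). Between the tissues, 11 of the 59 were higher and 33 lower in NP with vehicle, with a median of -0.64, and 15 were higher and 34 lower with MDL-800, with a median of -0.72, beside -0.08 for all genes. Over all genes 21.8% were higher and 33.9% lower with vehicle, and 25.6% and 37.2% with MDL-800. These counts include 7 genes that passed the filter through 1 tissue only, with fewer than 5 libraries of the other tissue at 1 FPKM, and so had to differ: Bach2, Gsta3, Abcc3, Aldh3a1, Ptgr1 and Ugt1a6a through AF and Nfe2l3 through NP. Of the other 52 genes, 10 were higher and 27 lower with vehicle (median -0.41) and 14 and 28 with MDL-800 (median -0.44). Of all 59, with the 7 that had to differ included, 11 were higher and 32 lower in both comparisons, 7 were called in 1 only and 9 in neither. The share of all genes called in both was not taken. In each comparison alone it was 55.7% with vehicle and 62.8% with MDL-800, so this count says little about the pathway. No gene was called in opposite directions.

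By the rule for naming genes, Gstm2, Me1 and Mgst1 were highest in NP relative to AF in both comparisons. Gstm2, a glutathione S-transferase, was 185 ± 30.2 in NP and 60.8 ± 25.8 in AF with vehicle (SD, n = 5), a difference of 1.67 (SE 0.26; limma adjusted p = 0.000275), and 1.75 with MDL-800. Me1, the cytosolic malic enzyme that makes NADPH, was 136 ± 20.4 and 47.3 ± 17.8, a difference of 1.59 (limma adjusted p = 0.000319), and 1.69 with MDL-800. Mgst1, a microsomal glutathione S-transferase, was 482 ± 46.1 and 195 ± 56.5, a difference of 1.34 (limma adjusted p = 0.000105), and 1.48 with MDL-800. These 3 enzymes were named for their rise in NP, so the direction they share with Nqo1 was set by the rule. Of the 59 genes tested, 33 were lower in NP with vehicle and 34 with MDL-800. Reads of Gstm genes may be shared with near-identical copies, and how such reads were counted is not given in the sources used here.

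By the same rule, Slc40a1, Blvrb and Aldh3a1 were lowest in NP relative to AF in both comparisons. Slc40a1, the iron exporter ferroportin, was 2.98 ± 3.07 in NP and 31.2 ± 12.0 in AF with vehicle (SD, n = 5), a difference of -3.23 (SE 0.43; limma adjusted p = 0.000124), and -3.66 with MDL-800. Blvrb, biliverdin reductase B, was 9.59 ± 6.38 and 74.4 ± 25.8, a difference of -2.90 (limma adjusted p = 0.000102), and -2.73 with MDL-800. Aldh3a1, an aldehyde dehydrogenase, was 0.230 ± 0.157 and 6.86 ± 2.87, a difference of -2.61, and -2.77 with MDL-800, but it passed the filter on low values only through AF and so had to differ. Blvrb is abundant in red blood cells and Slc40a1 in macrophages, whose markers were lower in NP too, as given above, and their part was not tested.

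The counts by list are a description, to be read against the 55.7% and 62.8% of all genes called in either direction, to which several lists are close. They include the 7 genes that passed the filter through 1 tissue only and so had to differ. Gsta3 and Abcc3 of the glutathione list are counted as lower. So are Aldh3a1, Ptgr1 and Ugt1a6a of the quinone, aldehyde and xenobiotic enzymes. Among the regulators, Bach2 is counted as lower and Nfe2l3 as higher. With the vehicle comparison first and MDL-800 second, glutathione synthesis, conjugation and export had 5 and 5 of 16 tested genes higher in NP and 6 and 7 lower. For quinone, aldehyde and xenobiotic enzymes it was 2 and 3 of 10 higher and 7 and 7 lower. Iron and heme handling had 0 and 1 of 9 higher and 6 and 6 lower. Among NADPH suppliers 1 of 6 was higher (Me1) and 5 lower in both: G6pdx, Pgd, Taldo1, Tkt and Idh1, of which the first 4 belong to the pentose phosphate pathway. In the thioredoxin list 1 of 5 was higher, Txnip, which binds and inhibits thioredoxin (0.59 and 0.70), and 4 were lower: Txn1 (-1.45 and -1.67), Prdx1 (-0.39 and -0.41), Txnrd2 (-0.81 and -1.15) and Txnrd3 (-0.64 and -0.83). Among 13 regulators of NRF2, 2 and 4 were higher and 5 and 5 lower. Sqstm1, which sequesters KEAP1, was higher in NP (0.72 and 0.61), and Bach1, a repressor at antioxidant response elements, was lower (-1.10 and -1.02), as was Cul3 (-0.34 and -0.48). Of the small MAF partners of NRF2, Maff (-1.56 and -1.63) and Mafg (-0.94 and -0.86) were lower too, and Mafk was at 0.03 and 0.41. The genes in this paragraph were singled out after their values were seen.

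**Figure D5:**
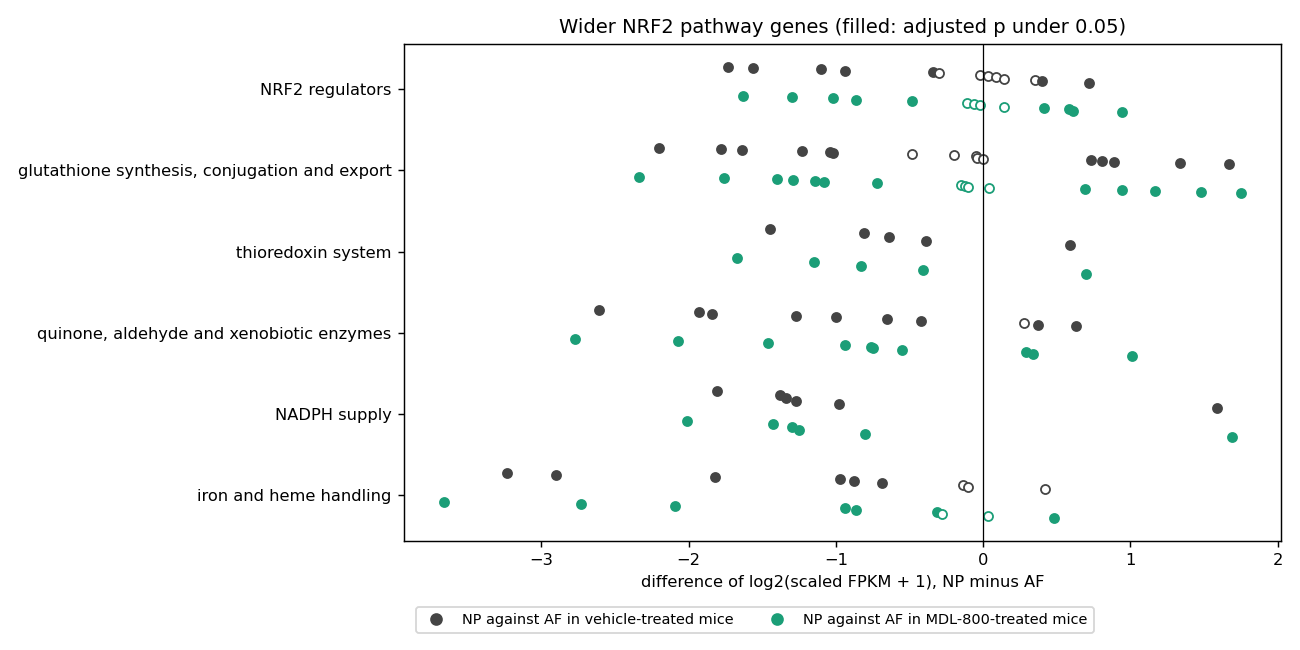
Difference of log2(scaled FPKM + 1), NP minus AF, for each of 59 further genes of the pathway in 6 lists (rows), in vehicle-treated (grey) and MDL-800-treated (green) mice. Filled points have a limma adjusted p under 0.05, and the small vertical offset only separates points. Most filled points lie below 0, from -3.66 up, and the highest, Gstm2, is at 1.75.

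With MDL-800 none of the 59 genes was called in NP, in AF or in the contrast between them. The smallest p-values in NP were those of Nfe2l1, a relative of NRF2 that drives proteasome genes, at 237 ± 16.2 with MDL-800 and 149 ± 38.5 with vehicle (SD, n = 5), a difference of 0.70 (SE 0.16; limma adjusted p = 0.0787), and of Mafk, a small MAF partner, at 0.52 (limma adjusted p = 0.131). In the other direction they were Prdx1, a peroxiredoxin, at -0.26 (adjusted p = 0.142) and Rbx1, a subunit of the CUL3 ligase, at -0.28 (adjusted p = 0.151). In AF they were Mgst2 (0.36), Mgst3 (0.27), Ephx1 (-0.33) and Abcc3 (-0.41), each with a limma adjusted p of 1. For the contrast they were Nfe2l1 (0.59), Abcc3 (0.49), Blvra (-0.25) and Abcc4 (-0.36), again at 1. The medians of the 59 genes were 0.00 in NP, 0.01 in AF and 0.02 for the contrast, beside -0.03, 0.01 and -0.02 for all genes.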

How the data were processed

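RNA was measured in 20 libraries of NP and AF tissue from 24-month-old mice. Per the labels' protocols, a stranded total RNA kit that removes ribosomal RNA was used. Per the submitters' processing notes, STAR 2.7.11b and the build mm10 (GRCm38) were used, and the program that assigned reads to genes, its annotation and the handling of reads that match several genes are not given in the sources used here. FPKM values rounded to 2 decimals were deposited by the authors in 1 table, with 51789 genes and a column per library. Columns were matched to samples by name, and groups were taken from the sample titles.

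Count models do not apply to FPKM and were not used. Values were divided by a factor per library (0.933 to 1.062), a median of ratios to geometric means taken over the 11308 genes that reach 1 FPKM in all 20 libraries. Genes that reach 1 FPKM in 5 or more of the 20 libraries were tested (16383) on log2(scaled FPKM + 1) with limma 3.58.1 (mean-variance trend, two-sided) in R 4.3.3, with the 2 groups compared in the fit, or all 4 for the difference of effects. Benjamini-Hochberg adjustment ran over all genes tested, and genes under 0.05 are called. On simulated data with 200 genes changed in the NP treatment comparison, 68.5% were found at a log2 change of 1 and 90.5% at 2, with 7 and 9 false calls. For the difference of effects these shares were 48.5% and 90.5%.

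Depth is not given. An estimate came from low FPKM values among 6641 genes with a single exon. Of the 605 to 793 values used per library, 70.7% to 77.0% lay on steps set by whole reads, a share that includes values there by chance. Simulated libraries were recovered within 0.40%, but their values all lay on such steps, so the error in the real libraries may be larger. Across genes, libraries of the same group had correlations r from 0.896 to 0.978, and none were identical. Relations to marker means used 100000 permutations (scipy 1.17.1, Python 3.11.15). GENCODE M21 gave coordinates and GC content (51596 of 51789 genes).

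The 10 genes, the 6 wider lists and the marker lists were chosen with earlier results of these data known. All 10 genes are named in each comparison. From the wider lists, the 3 called genes with the largest rise and the 3 with the largest fall were named among those with a mean of at least 5 scaled FPKM in the higher group, or, without calls, the 2 smallest p-values in each direction. Alternatives were other pseudocounts (0.1 and 0.5), no filter, a stricter filter (5 FPKM), no library scaling, quantile normalization, all 4 groups in the fit, no trend, removal of the GC trend, marker means as covariates and leaving out each library. The neutrophil covariate and a block by the number in the column names were added after seeing the data.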

Additional observations from a re-analysis of the deposited data

Results flagged for a closer look

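In each of 4 groups, the 10 genes and 2 ratios were screened for a single library whose gap to the nearest other was too large a share of the range of the 5 libraries by Dixon's test at the 95% level. Of 48 such sets, 3 were flagged, where chance flags about 1 in 20. Hmox1 was 18.0 scaled FPKM in NP vehicle library 6, where the nearest other library of that group was at 9.16. Gclm was 27.1 in the same library, with the nearest at 19.7. This library also had the highest macrophage and neutrophil marker means of the NP libraries (3.40 and 7.91 on the log2 scale), and the part of those cells in the values was not tested. Keap1 was 27.4 in NP MDL-800 library 20, with the nearest at 23.6.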

How the results depend on the processing

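In both tissue comparisons 9 of the 10 genes, among them Slc7a11, which had to differ, stayed called when any single library was left out. Of all 16383 genes, 8291 to 9138 were called under these omissions with vehicle and 9572 to 10283 with MDL-800, so this says little about the pathway. In the treatment comparisons and the difference of effects, 0 of the 10 were called under every alternative and omission run. With pseudocounts of 0.1 or 0.5, no filter, no library scaling, all 4 groups in the fit, no trend or the GC trend removed, the tissue comparisons also called 9. Over all genes, no filter called 10573 (vehicle) and 12123 (MDL-800) of 32358. The others of these settings called 8974 to 9728 and 10122 to 10370 of 16383. The stricter filter dropped Slc7a11 and left 8, and quantile normalization called 9 with vehicle and 7 with MDL-800. Among the alternatives run, the count moved by over 1.5 times only with marker covariates: with red blood cell markers 0 (vehicle) and 2 (MDL-800), with macrophage markers 0 and 0, with neutrophil markers 1 and 2. The calls over all genes fell alike, from 9127 to 0, 0 and 2150 with vehicle and from 10290 to 3198, 0 and 2554 with MDL-800. The number of all genes called for MDL-800 in NP, 41, ranged from 2 to 189 when single libraries were left out, moving by over 1.5 times with each omission, and was 189 without NP vehicle library 6.

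Signs turned as follows, none of the turned values passing the test, and the cause was not tested. For NP against AF with MDL-800, Gclc went to 0.19, 0.05 and 0.14 with the red blood cell, macrophage and neutrophil covariates, and with the macrophage covariate Keap1 went to -0.06, Nfe2l2 to 0.35, Nqo1 to -0.27 and Srxn1 to 0.43. With vehicle and the macrophage covariate, Hmox1 went to 0.60, Nfe2l2 to 0.08, Nqo1 to -0.23 and Srxn1 to 0.07. Quantile normalization put Srxn1 at 0.20 (MDL-800) and 0.15 (vehicle), and Hmox1 at -0.01 for MDL-800 in NP. For MDL-800 in NP, removal of the GC trend gave Gclc 0.03, Gclm 0.13, Hmox1 -0.06 and Keap1 -0.02, the red blood cell covariate gave Gclc 0.02 and Gclm 0.02, and the macrophage covariate gave both 0.00. For MDL-800 in AF, the red blood cell, macrophage and neutrophil covariates gave Gclc -0.02, -0.02 and -0.01 and Gclm -0.03, -0.12 and -0.05, and the macrophage covariate gave Nqo1 -0.04. For the difference of effects, removal of the GC trend gave Gclm 0.02 and Keap1 -0.07, and the red blood cell covariate gave Gclc 0.03 and Gclm 0.04.

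Leaving out single libraries turned signs only of values near 0. For MDL-800 in NP the ranges were -0.12 to 0.05 (Gclc), -0.08 to 0.10 (Gclm), -0.24 to 0.12 (Gsr), -0.06 to 0.21 (Hmox1), -0.17 to 0.06 (Nqo1), -0.02 to 0.06 (Slc7a11) and -0.01 to 0.08 (Txnrd1). In AF they were -0.08 to 0.11 (Gclc), -0.11 to 0.24 (Gclm), -0.04 to 0.08 (Nfe2l2) and -0.06 to 0.24 (Nqo1). For the difference of effects they were -0.14 to 0.08 (Gclc), -0.25 to 0.10 (Gclm), -0.03 to 0.11 (Keap1), -0.01 to 0.15 (Nfe2l2), -0.01 to 0.15 (Srxn1) and -0.11 to 0.03 (Txnrd1), and for NP against AF with MDL-800 -0.10 to 0.02 (Srxn1).

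A second number in the column names recurs in NP and AF columns (5 vehicle and 3 MDL-800 pairs), but nothing says that it names an animal. Deviations of same-numbered libraries correlated between -0.18 and 0.29, and 2 of 8 libraries correlated best with their own number. These correlations are between different tissues, which can vary apart within an animal, so they cannot exclude shared animals. The main fits left the libraries unpaired, and if animals were shared, those fits ignore it. With the second number as a replicate block, chosen after seeing the data, 9 of the 10 genes were again called in each tissue comparison. Of all 16383 genes, 8783 (vehicle) and 7857 (MDL-800) were called with it. Srxn1 went to 0.10 between tissues with MDL-800. In the difference of effects 0 of the 10 were called, where Nfe2l2 went to -0.15 and Nqo1 to 0.18. In MDL-800-treated mice this block rests on only 3 pairs. Slc7a11 in NP, under 1 FPKM in every library, is the value of the 10 genes that depth limits most.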
